A study of Homo sapiens with 3 samples.

Results

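Peaks of YBX1 chromatin occupancy were examined at 8 genes of JAK-STAT signalling: the kinases JAK2 and TYK2, the transcription factors STAT5B and STAT4, the inhibitors SOCS5 and SOCS1, and the receptors IFNGR1 and IFNAR1. A peak was taken when the gene name stood among the symbols that the authors' annotation gives for it. This selected 24 of 22874 peaks in replicate 1 and 23 of 17285 in replicate 2, and 8 of the 10830 gene names in the lists. The genes were picked with peaks of these lists already known, so the fact that all 8 carry peaks is not a finding. The series held 3 libraries from untreated HEL cells, an established erythroleukaemia line with a mutated JAK2 gene. There were 2 immunoprecipitations with an anti-YBX1 antibody, which form the replicates, and 1 input library of sheared, formaldehyde-crosslinked chromatin from the same line. The replicates held 10010819 and 9926271 tags after removal of duplicates, and the input held 74780414. The labels do not say that the replicates came from separate cultures, so the spread between them may be technical. All coordinates of peaks are hg19.

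Cytokine and interferon receptors have no kinase activity of their own, and they signal through bound kinases of the JAK family. The kinases phosphorylate STAT proteins, which enter the nucleus and bind target genes, and SOCS proteins are feedback inhibitors of the receptor complex. YBX1 binds both RNA and DNA through a cold-shock domain and flanking sequence. It was named for the Y-box, a promoter element that holds an inverted CCAAT sequence.

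TYK2 and IFNAR1 were the members with peaks that the authors classed as promoter. The bases before the start of each gene are shown so that a reader can see what they hold. They come from RefSeq on GRCh38.p14 and run 5′ to 3′ over the 250 bases before the start, with CCAAT on either strand in capitals. TYK2 lies at chr19:10380573-10380822 on the minus strand and IFNAR1 at chr21:33324145-33324394 on the plus strand.
TYK2: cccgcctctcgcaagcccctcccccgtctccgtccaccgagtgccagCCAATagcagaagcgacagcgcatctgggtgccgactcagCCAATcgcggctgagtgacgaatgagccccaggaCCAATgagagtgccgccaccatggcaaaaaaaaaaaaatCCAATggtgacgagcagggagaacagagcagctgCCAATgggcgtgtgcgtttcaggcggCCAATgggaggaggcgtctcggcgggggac
IFNAR1: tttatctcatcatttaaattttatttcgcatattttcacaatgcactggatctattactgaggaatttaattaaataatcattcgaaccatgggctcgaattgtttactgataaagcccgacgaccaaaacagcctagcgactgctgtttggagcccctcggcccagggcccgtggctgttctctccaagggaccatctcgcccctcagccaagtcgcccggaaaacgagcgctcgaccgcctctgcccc

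The TYK2 window held 6 matches to CCAAT, counted on both strands, a feature pointed out after the sequence had been seen. Of all 35116 windows of this length, 32.0% held at least 1 match and 0.105% held at least 6. The IFNAR1 window held 0 matches, as did a second IFNAR1 window further into the locus, which is not shown. The repeat units that the annotation gives for the TYK2 peaks were also searched, on both strands, as 2 copies in a row. TGGATGGA and TGGGTGGG were in neither window, and 0.869% and 3.95% of all windows held them. Of the 8 members, 7 had a window in the table, with 13 windows in all. Of these, only the TYK2 window held a match to CCAAT. The peaks are on hg19 and were not moved to GRCh38.p14, so whether a peak covers these bases was not tested.

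Peaks at the 8 genes fell into 12 loci when peaks of either list within 1000 bp were joined, and 4 of these lay inside a gene by the authors' annotation. The loci inside genes were an intron of JAK2, an intron and promoter stretch of TYK2, intron 1 of 18 of STAT5B, and the promoter of IFNAR1. The 8 other loci were intergenic, and 7 of them were named for several genes at a time. Of the member peaks, 11 of 24 in replicate 1 and 11 of 23 in replicate 2 were inside a gene, against 41.1% and 40.7% of all peaks. Exons held 0 member peaks in either list, and 0.901% and 0.874% of all peaks. Promoter peaks numbered 3 and 4, against 3.28% and 3.42% of all peaks.

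Most member peaks were found in both replicates. In replicate 1, 18 of 24 (75%, exact 95% interval 53.3% to 90.2%) overlapped a replicate 2 peak by at least 1 bp, where the share over all peaks of that list was 54%. In replicate 2 it was 20 of 23 (87.0%, 66.4% to 97.2%), where the share over all peaks was 77.6%. These intervals cover counting error only, and neighbouring peaks of a locus are not independent. Simple tandem repeats, which are short units copied head to tail, held 12 of the replicate 1 and 13 of the replicate 2 member peaks, against 51.2% and 58.9% of all peaks. All of these tandem repeat peaks, 12 of 12 and 13 of 13, were found in the other replicate, and outside tandem repeats the counts were 6 of 12 and 7 of 10. The whole lists were split in the same direction, with 71.1% and 90.8% of tandem repeat peaks and 36.1% and 58.7% of other peaks found in the other replicate. Overlapping peaks merged into 15 shared places out of 24, and at these the summits of the strongest peaks of both replicates lay 0 to 58 bp apart.

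The single-replicate peaks mostly lay beside a shared place. There were 6 in replicate 1 and 3 in replicate 2, and of these 4 and 3 were within 1000 bp of a peak found in both replicates. Over all single-replicate peaks of the lists that share was 51.7% and 43%. The 7 neighbours stood 40 to 136 bp from a shared peak and held 5 to 11 tags. The remaining 2 stood alone: the intron peak of JAK2, 105815 bp from the nearest shared peak, and a 5-tag replicate 1 peak near IFNAR1, 69005 bp away.

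JAK2, the kinase of the erythropoietin and thrombopoietin receptors, had its strongest peaks outside the gene and on no annotated repeat. The annotation named it beside INSL6, INSL4 and RLN2, genes of insulin-like and relaxin peptides, for a place on chromosome 9 from 5200271 to 5200797. Replicate 1 had peaks of 106 and 37 tags there and replicate 2 had peaks of 21 and 82. The summits of the 106-tag and the 82-tag peak lay 11 bp apart, so the tall signal was at the same spot and the called edges around it differed. Among peaks without a repeat label, the 106-tag peak ranked 47 of 5994 by tags and the 82-tag peak 31 of 3860. A second intergenic place on chromosome 9 (5189584 to 5189661) held 13 tags in replicate 1 and 8 in replicate 2. Inside the gene, the lists had 1 peak, on an L1ME3 element in an intron (5059208 to 5059277), with 12 tags in replicate 1 and no peak in replicate 2. L1ME3 is an old family of LINE retrotransposon. The replicate 2 tags at that position are not in the list, so whether the 2 libraries differ there was not tested.

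TYK2, a kinase of the type I interferon and interleukin-12 receptors, had a run of peaks over 1033 bp in replicate 1 and 955 bp in replicate 2. Each list had 6 peaks, and all 12 were found in the other replicate. In replicate 1 they held 25, 107, 12, 26, 5 and 15 tags along chromosome 19 (10487800 to 10488832). In replicate 2 they held 77, 11, 8, 20, 10 and 15 tags (10487860 to 10488814). In both libraries a tall peak at the low-coordinate end was followed by smaller ones. The tall peaks lay on a TGGA repeat and the peaks at higher coordinates mostly on a TGGG repeat. The first replicate 1 peak carries no repeat label and is placed in intron 3 of 24. The last peak of each list was classed as promoter and lay on the TGGG repeat, next to peaks on the same repeat that were classed as intron. Fold enrichment, the authors' ratio of summit tags to expected background, reached 117 in replicate 1 and 94.2 in replicate 2.

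**Figure D1:**
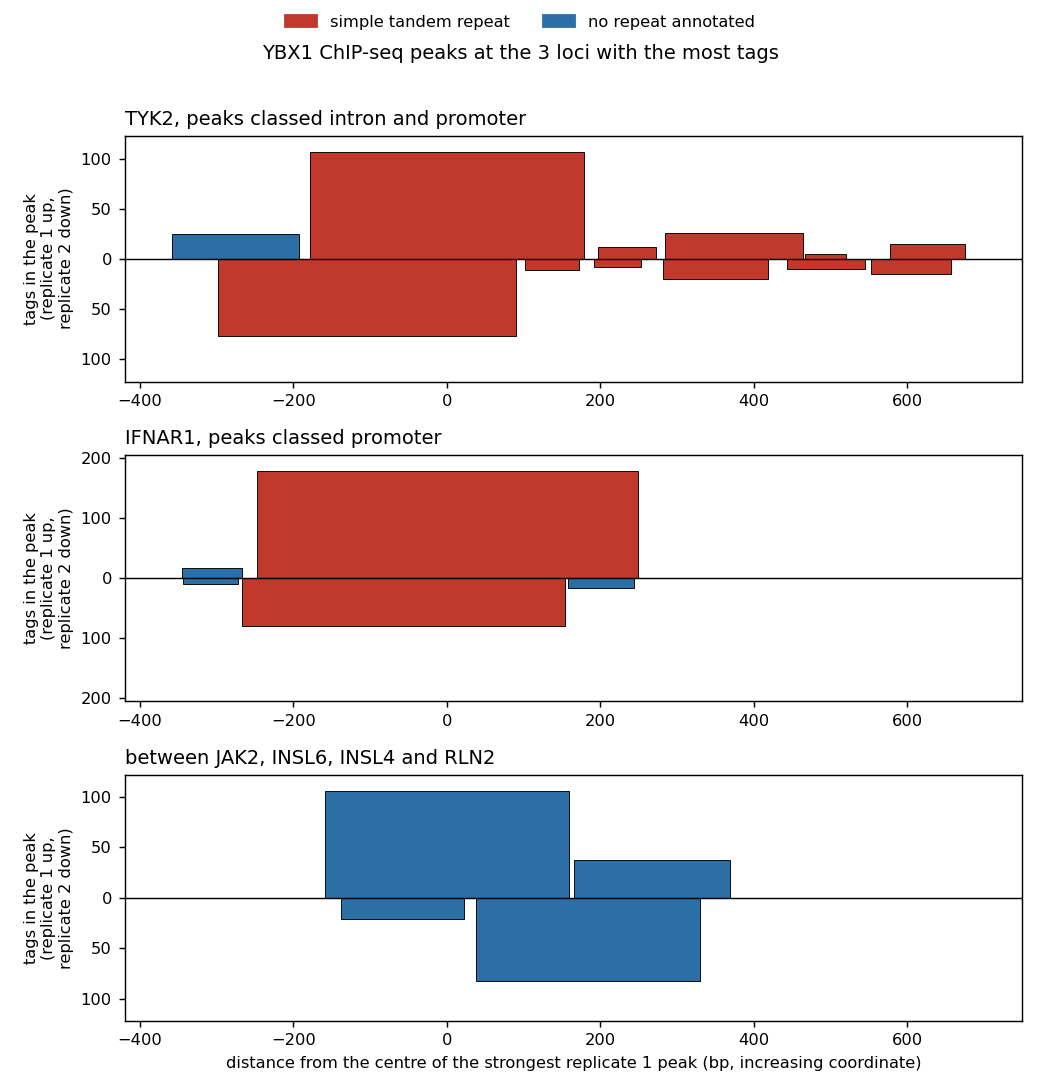
Peaks at TYK2, at the IFNAR1 promoter and at the intergenic place named for JAK2, INSL6, INSL4 and RLN2. They are drawn to scale by distance (bp) from the centre of the strongest replicate 1 peak. Bar height gives the tags in the peak, replicate 1 upward and replicate 2 downward. TYK2 shows a tall peak with 107 and 77 tags and smaller peaks after it, IFNAR1 a broad peak with 178 and 79 tags, and the JAK2 place tall peaks with 106 and 82 tags whose edges differ and whose summits lie 11 bp apart.

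STAT5B, a transcription factor activated by JAK2, had the highest fold enrichment of the members in replicate 2. A TCCA repeat on chromosome 17 (40390080 to 40390166) in its intron held 18 tags at a fold of 116 in replicate 1 and 20 tags at 142 in replicate 2. The summits fell on the same base. Each list had a further weak intron peak that the other lacked, with 6 tags in replicate 1 and 5 in replicate 2, the latter on an AluJr element. STAT4, which acts in interleukin-12 signalling, was named for a TCTA repeat between genes on chromosome 2 (192042706 to 192042794). It held 29 tags at a fold of 107 in replicate 1 and 17 tags at 80.7 in replicate 2. A 7-tag peak on an MLT2D element beside it was in replicate 2 only.

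The shared place of each inhibitor was an intergenic TCTA repeat that also carried the names of other genes. SOCS5 shared its place with 4 other names on chromosome 2 (46903584 to 46903695), where replicate 1 had 15 tags at a fold of 111 and replicate 2 had 18 tags at 81.4. SOCS1, a feedback inhibitor of JAK kinases, was named with TNP2, PRM1, PRM3, PRM2 and RMI2 for a repeat on chromosome 16 (11417859 to 11417925). It held 9 tags at a fold of 67.4 in replicate 1 and 11 tags at 95.2 in replicate 2. Beside it, replicate 1 alone had a 6-tag peak on an AluJr element (fold 53.9) and replicate 2 alone a 5-tag peak without a repeat label (40.8). By tags the SOCS1 repeat ranked 3906 of 5372 among peaks on this unit, counted over its rotations and both strands, in replicate 1 and 2729 of 4930 in replicate 2.

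IFNGR1, the ligand-binding chain of the interferon gamma receptor, had 2 intergenic loci, each centred on a TCTA repeat. The first, on chromosome 6 (137431363 to 137431466), was also named for IL20RA and IL22RA2, which encode receptors of interleukin-20 and interleukin-22 family cytokines. It held 23 tags in replicate 1 and 12 in replicate 2, and an 11-tag peak on an MLT2B2 element beside it was in the replicate 1 list only. The second (137606880 to 137606985) was named for IFNGR1 alone and held 28 and 15 tags. A weaker shared place without a repeat label lay beside it (137607060 to 137607195), with a peak of 8 tags in replicate 1 and peaks of 5 and 6 in replicate 2. Fold enrichment at the repeats was 97.1 and 103 in replicate 1 and 57.1 and 56.5 in replicate 2. The 5 member peaks on TCTA repeats, from STAT4, SOCS5, SOCS1 and IFNGR1, had a median of 23 tags in replicate 1 and 15 in replicate 2, where all peaks on this unit had medians of 15 and 13.

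IFNAR1, a chain of the type I interferon receptor, carried the peak with the most tags of all members in replicate 1. On chromosome 21, a GGATG repeat classed as promoter gave a peak 496 bp wide in replicate 1 (34695882 to 34696377), holding 178 tags. Replicate 2 had 79 tags over 421 bp (34695862 to 34696282) and a separate 17-tag peak next to it (34696288 to 34696373), which the annotation ties to the start of transcript NM_000629. A flanking peak of 17 and 10 tags (34695784 to 34695861 in replicate 1) was also in both lists. By tags the large peak ranked 10 of 750 promoter peaks in replicate 1 and 13 of 592 in replicate 2, and it ranked 1 of 43 and 1 of 33 among peaks on this repeat unit. By fold enrichment it ranked 274 and 489 among the promoter peaks, at 59.3 and 25.2. A single replicate 1 peak of 5 tags on an MLT1D element (34765382 to 34765433) was named for IFNAR1 with DNAJC28, TMEM50B and the receptor genes IFNGR2 and IL10RB.

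Tags and fold enrichment order the members differently, and the input library differed between the loci. The score MACS gives a peak depends on its tags, its width and the expected background, so the background behind each peak was solved from the deposited score. MACS takes as background the largest of the genome-wide density and the input densities around the peak. It is given here as an input level, the ratio of the background used for the peak to the genome-wide background. For the peaks named for JAK2, the input level was 4.97 to 5.17 over 4 peaks in replicate 1, of which 1 lay inside the gene. In replicate 2 it was 4.98 to 5.16 over 3 peaks, all intergenic. Both lists use the same input, so the agreement is a check of the calculation and not a repeat measurement. At IFNAR1 it was 2.02 to 3.64 and 2.54 to 3.77, and at TYK2 1.57 to 1.84 and 1.57 to 1.95. At STAT5B it was 1.05 in all peaks, and at SOCS1 all 4 peaks stood at the genome-wide level of 1.00. The medians over all peaks were 1.09 and 1.12, and 98.5% to 98.7% of replicate 1 peaks had a lower level than the JAK2 peaks. This background allows no level under 1, yet the solved levels over all peaks ran down to 0.315 in replicate 1 and 0.213 in replicate 2. The calculation therefore does not hold for some peaks of the lists, and these shares are approximate. Among the member peaks the lowest level was 1.00 in both lists. A peak was taken to stand at the genome-wide background when its fold fitted a whole number of summit tags over that background, within 0.006. By this rule, which is not a field of the lists, 38.9% and 37.4% of all peaks did, and 2 of 24 and 2 of 23 member peaks.

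The tags stacked at each summit could be recovered in the same way, and they show the same genes in another order. The intergenic place named for JAK2, INSL6, INSL4 and RLN2 had 23 tags at its summit in replicate 1 and 17 in replicate 2. These were the most of any member in each list, at folds of 62.4 and 46.5. IFNAR1 had 16 tags at the summit of its large peak in replicate 1 and 7 in replicate 2, and TYK2 had 15 and 12. STAT5B had 9 and 11 tags at the summit at folds of 116 and 142. The JAK2 intron peak had 7 summit tags at a fold of 18.2, where peaks with the same 12 tags had a median fold of 67.4 over 811 peaks. For each of the 7 peaks named for JAK2, at most 3.87% of the peaks of its list with the same tag count had a lower fold. Only 4 peaks held 106 tags and 4 held 82. The cause of the high input level at the peaks named for JAK2 was not tested.

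**Figure D2:**
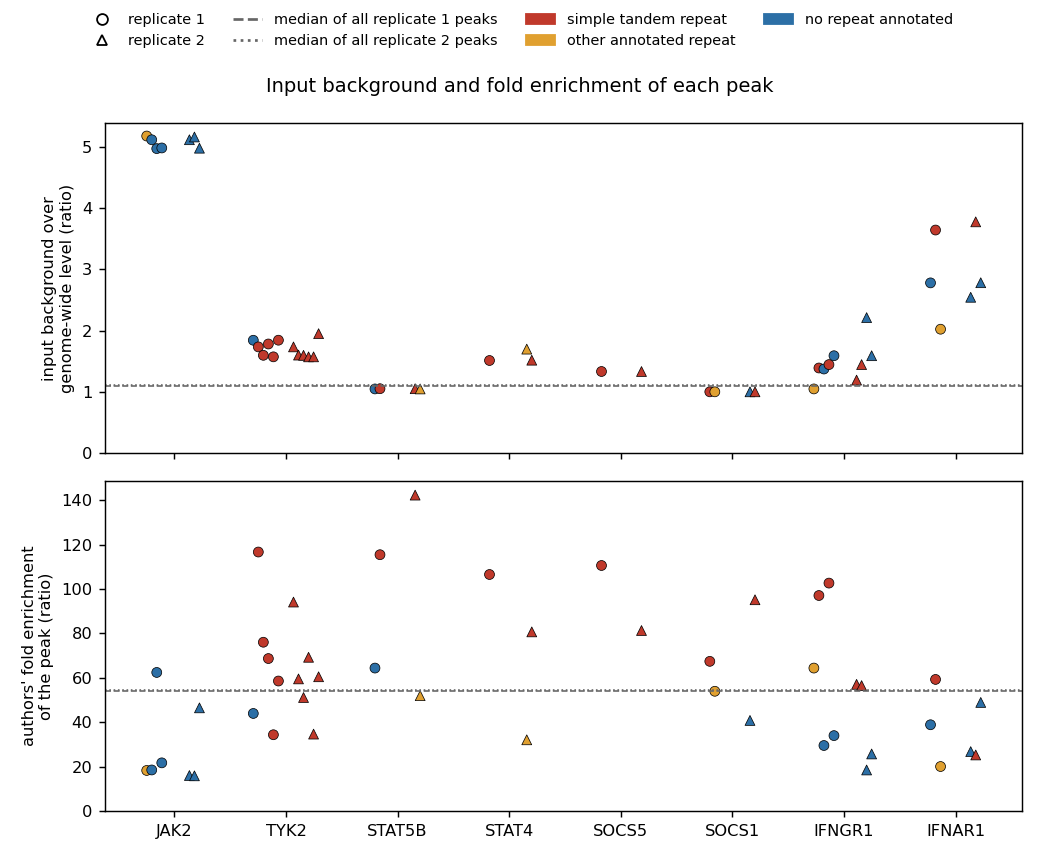
Input level (top, ratio to the genome-wide background) and the authors' fold enrichment (bottom) of every member peak by gene, circles for replicate 1 and triangles for replicate 2, coloured by repeat class, with dashed and dotted lines at the medians of all peaks. JAK2 peaks stand at input levels of 4.97 to 5.17 with most folds below the median line, and STAT5B and SOCS1 peaks stand near 1.00.

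The tag counts of the 15 shared places were compared between the replicates by a two-sided exact binomial test against the share of tags kept, with Benjamini-Hochberg adjustment over all 10895 shared places. Where a place held several peaks of a list, their tags were summed. The test compares 2 libraries of 1 condition and covers counting error only. The large IFNAR1 place differed, with 178 tags in replicate 1 and 96 in replicate 2, a ratio of 1.84 (95% interval 1.43 to 2.38, adjusted p = 0.000233, exact test). The other 14 places did not pass an adjusted p of 0.05, with ratios from 0.721 to 1.90. At TYK2 the largest place held 132 and 88 tags (ratio 1.49, 1.13 to 1.97, adjusted p = 0.0637, exact test). The intergenic place named for JAK2, INSL6, INSL4 and RLN2 held 143 and 103 (ratio 1.38, 1.06 to 1.79, adjusted p = 0.163, exact test). Over all shared places, 4.97% were called with more tags in replicate 1 and 0.0918% with more in replicate 2. The replicate 1 library had more tags at 71.4% of shared places, and scaling by the tags of all shared places shifts every log2 ratio by 0.43. With that scaling the IFNAR1 log2 ratio went from 0.88 to 0.45 and its call was lost (adjusted p = 0.443, exact test).

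**Figure D3:**
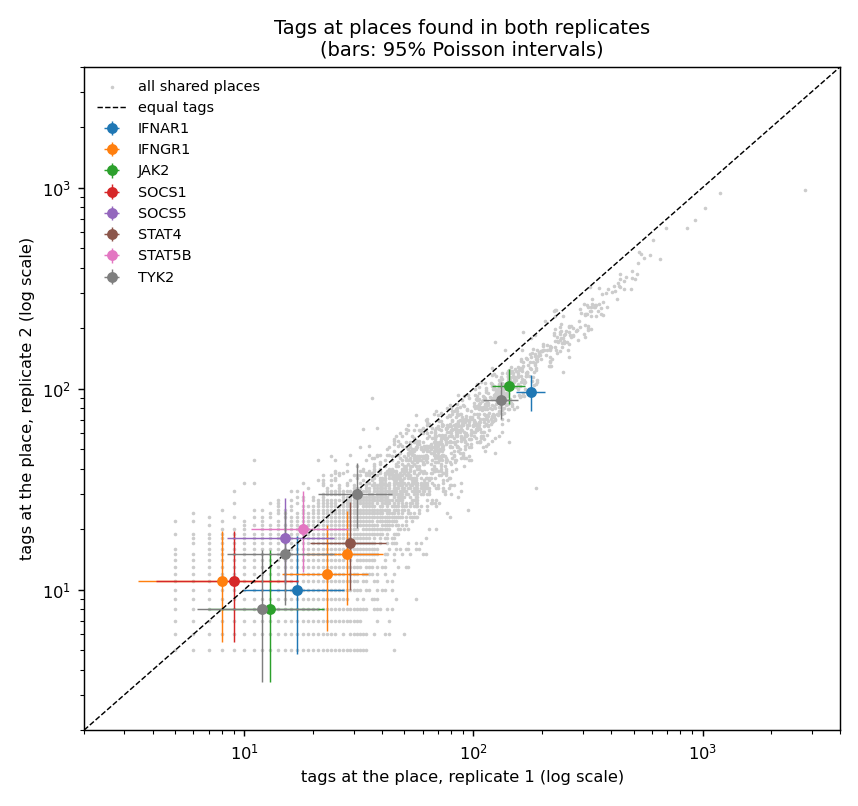
Tags at places found in both replicates, replicate 1 on the x axis and replicate 2 on the y axis, both on log scales, with all 10895 shared places in grey, the 15 member places in colour with 95% Poisson intervals, and a dashed line at equal tags. The IFNAR1 place lies below the line at 178 and 96 tags, and 71.4% of all shared places lie below it too.

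A wider list of 96 other JAK-STAT genes gives the setting of the members. Of these genes, 44 were named for a peak, where 38% of all 20052 protein-coding RefSeq symbols were. That share is a lower limit, since symbols that have changed since the annotation were not matched. A peak found in both replicates was present for 27 of the 44 (61.4%), where the share over all named genes was 66.7%. Inside the gene, 7 of the 44 had such a peak, and 20.4% of all named genes did. The kinases JAK1 and JAK3 were both named, for intergenic repeats with folds of 71.7 and 39.0 at JAK1 and 80.9 and 54.4 at JAK3. The JAK1 repeat was also named for CACHD1 and RAVER2, and the JAK3 repeat for several other genes. STAT5A and STAT5B encode closely related proteins, and the STAT5B repeat was named for STAT5B alone. Values in parentheses below are folds in replicates 1 and 2. Of the inhibitors 6 of 17 were named and 3 had a shared peak. PTPRC, the phosphatase CD45, led with an intronic TCTA repeat (131 and 144), followed by intergenic repeats at the phosphatase genes PTPN11 (146 and 113) and PTPN1 (88.5 and 80.7).

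Receptors made up most of the named genes, with 23 of 33 named and 15 shared. They were led by an intergenic place named for IL3RA, ASMTL-AS1 and SLC25A6 (283 and 231), which the annotation labels with the end of transcript NM_178129. IL3RA encodes a chain of the receptor for interleukin-3. Next came a promoter TGGA repeat at CRLF2, the receptor of thymic stromal lymphopoietin (148 and 163). An intergenic TGGA repeat named for IFNLR1, the interferon lambda receptor, and for GRHL3, LOC284632 and STPG1 followed (154 and 145). Each gene is ranked by its best place, and IL3RA had 23 shared places and CRLF2 52, against 2 for IFNLR1. IL3RA and CRLF2 lie in the pseudoautosomal part that X and Y share, where reads cannot be told apart between the chromosomes. Ligands had 8 of 27 named and 5 shared. The highest folds were at intergenic places named for IL7 alone (111 and 135), for IL5 (80.9 and 68) and for IL11 (67.4 and 68). The IL5 place was also named for C5orf56, IRF1 and RAD50. The IL11 place carried many other gene names and the label of the end of transcript NM_024710. Target genes had 5 of 12 named and 2 shared. These were BCL2, at an intergenic repeat also named for PHLPP1 (105 and 68.6), and IRF1, for the same repeat as IL5 (80.9 and 68). Gene length and the number of neighbouring genes, on which a name in this annotation depends, were not matched.

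**Figure D4:**
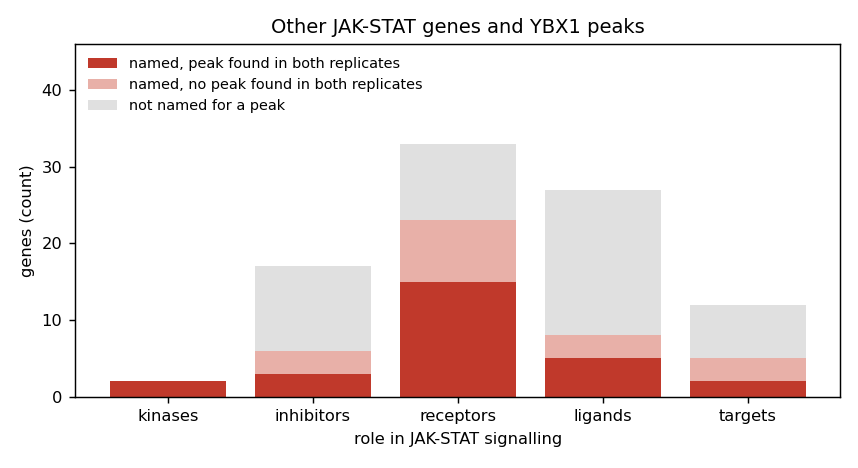
Number of genes (y axis) in 5 roles of the wider JAK-STAT list (x axis), split into those named for a peak found in both replicates, those named without such a peak, and those not named. Receptors hold 15 genes with a shared peak out of 33, ligands 5 of 27, inhibitors 3 of 17, target genes 2 of 12 and kinases 2 of 2.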

How the data were processed

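YBX1 ChIP-seq of HEL cells gave a deposited list of peaks for each of 2 replicates. Per the submitters' processing notes, bcl2fastq 02.14.01.07, Trimmomatic 0.36, Bowtie2 and the build hg19 were used. Per the file headers, MACS 1.4.2 called peaks per replicate against 1 shared input, with a p cutoff of 1e-05 and 1 tag kept per position. The headers give a modelled fragment size of 20 bp for tags of 36 bp. That is shorter than the tags and than the labelled shearing range of 100 to 600 bp. Peak edges, summit tags and folds depend on this size, and no other size was tried. No source used here gives the rule of the authors' later filter. Deposited values are tag counts per peak, a score (10 times the negative log10 of p, read from the values since the column name was lost), fold enrichment as a ratio, and a false discovery rate as a percent, which was 0 throughout. Other deposited columns give width and summit in bp. Classes, genes and repeats are the authors' annotation. Headers of the replicate 2 list number its alignment differently from the label; the label was followed.

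The members and gene lists were chosen with earlier results of these data known. All members are named; of the wider list, 1 role is not reported here, and of the others at most the 3 genes per role that rank highest by the lower of the 2 replicates' folds. Peaks overlapping by at least 1 bp were shared. Input levels come from inverting the Poisson tail of the deposited score, divided by the genome-wide mean: 94.9% of peaks whose fold lay within 0.006 of a multiple of the genome-wide unit gave a level within 1% of 1, and 95.3% of all peaks gave a whole number of summit tags within 0.05. Tag ratios were tested with exact binomial tests (Python 3.11.15, scipy 1.17.1), which were tested on simulated data. Promoter sequences are RefSeq, GRCh38.p14.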

Additional observations from a re-analysis of the deposited data

How the results depend on the processing

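The 15 shared places, the 10 places inside genes and the shares found in both replicates kept to within 1.5 times or within their intervals under most alternatives. The shared places numbered 10 with summits within 100 bp, and also 10 with peaks within 1000 bp joined. At all 15 places the summits of the strongest peaks lay 0 to 58 bp apart. The lower count with the summit setting therefore does not show places whose summits failed to match. The shared places numbered 11 with a score of at least 100 and 11 with at least 10 tags. With these last settings the places inside genes numbered 7 and 8. With a score of at least 100 (p at most 1e-10), 100% of the replicate 2 member peaks were found in replicate 1, and tandem repeats held 80% of them, against 87.8% and 76.5% of all replicate 2 peaks at that score. Without replicate 1 or without replicate 2 the places inside genes numbered 11 and 11, and the tandem repeat share lay between 50% and 56.5%. The count of member places that differ in tags was 1, and 3 had an unadjusted p under 0.05. It was 0 when scaled by all shared places (1 with an unadjusted p under 0.05), and 3 of 10 when tags were summed over loci, an alternative chosen after seeing the data, at IFNAR1, at TYK2 (adjusted p = 0.0456, exact test) and at the first IFNGR1 locus. These sums count a peak listed in 1 replicate as 0 in the other, so the IFNGR1 call rests on tags that are not listed and is not a measured difference. The exact test's adjusted p for the large IFNAR1 place ranged from 8.06e-08 to 0.443. Over all shared places the calls went from 552 to 46 with that scaling, 1010 with the strongest peak of each replicate and 1743 over loci. With peaks inside genes alone, 7 genes of the wider list had a shared peak. No paired analysis was possible because there is 1 group of immunoprecipitations and its input carries no replicate number. Peaks under 5 tags are not listed, so a gene without a peak is not shown to lack YBX1.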
